A study of Mus musculus with 12 samples.

Results

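RNA of mouse aorta with a knockdown of APPL1 (HSAPN, n = 3) was compared with RNA of aorta of WT genotype (HAPN, n = 3), which makes 6 of the 12 samples of the series. Both groups were on a diet with 60% of its kcal from fat for 12 weeks. Genes entered when they had at least 1 FPKM (fragments scaled to transcript length and library size) in at least 3 of the 6 libraries, which held for 1469 of 3532 genes, or 41.6%. The other 6 samples, WT on a standard diet and HFD, also WT genotype on the high-fat diet, entered the estimate of spread and are given below only as values.

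The labels say neither what the titles HAPN and HSAPN stand for nor what sets HAPN apart from HFD, which has the same genotype and diet. How APPL1 was knocked down, in which cells, under which promoter, the strain, age and sex of the mice, and the hour of collection are likewise not given in these sources. Appl1 itself was not analysed here, so the knockdown could not be checked from its target, and the same holds for Appl2, Adipor1 and Nos3. Since no label ties the replicates to different mice, the p-values below speak of the spread among these libraries only, which may be technical.

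APPL1 is an adaptor protein that binds the adiponectin receptors and links them, and insulin signalling, to AMPK and Akt. In the vessel wall this route is known for activating endothelial nitric oxide synthase. Heat shock genes, which the results below turn on, mostly encode chaperones that refold damaged proteins. Heat shock factor 1 switches them on within minutes of heat or other protein-damaging stress by binding repeated GAA units in their promoters.

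The 6 libraries held 15610000 to 17750000 reads, as recovered from the deposited values, and the table held 12.0 to 14.4% of them. Pearson r of log2(FPKM + 1) across genes ran from 0.938 to 0.980 between the libraries, genes not being independent replicates. All 8 smooth muscle markers fixed for checking the tissue were in the table and detected. Their summed levels were 369 to 727 FPKM in HAPN and 383 to 666 FPKM in HSAPN. Acta2 and Myl9 were the largest parts, at 162 to 312 and 100 to 206 FPKM over the 6 libraries. Tagln, also a marker, stood at only 0.279 to 0.449 FPKM, under the filter of 1 FPKM. Of the endothelial, B cell and neutrophil markers none was in the table. Markers of other tissues differed strongly between libraries of the same group. The 3 cardiac markers in the table summed to 122, 129 and 7.79 FPKM in HAPN replicates 1 to 3 and to 29.4, 15.6 and 154 FPKM in HSAPN, and Bpifa1, an airway secretory gene, was at 840, 3848 and 2.81 FPKM against 27.9, 35.2 and 1149 FPKM. HAPN replicate 3 was thus the library with the least of both, and in every marker list the groups overlapped. The labels give no batch or date.

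**Figure D1:**
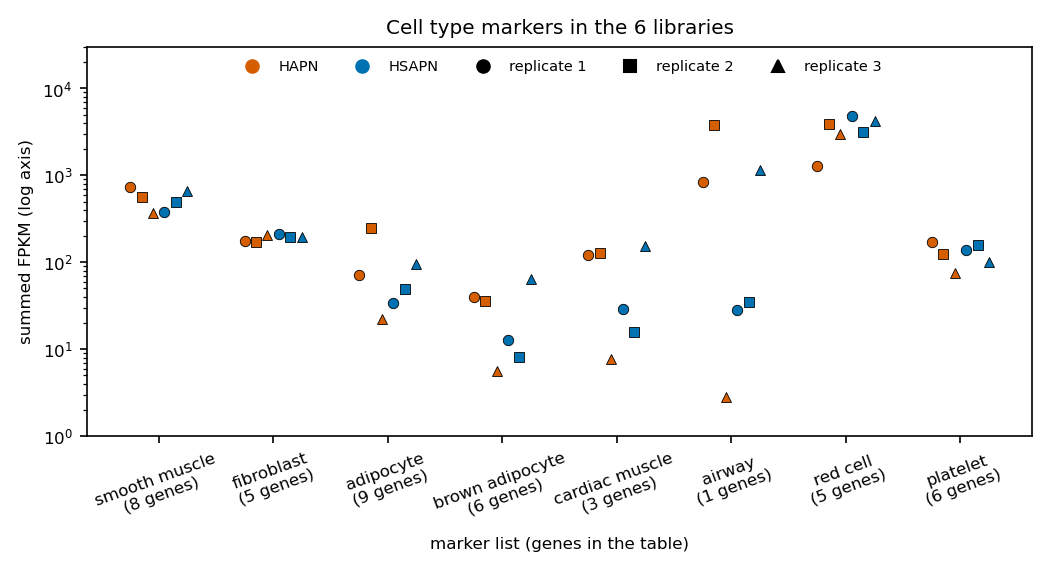
Summed FPKM of the cell type markers in the table (log axis) for each HAPN (orange) and HSAPN (blue) library; symbols give the replicate number and each point is 1 library. The groups overlap in every list, and HAPN replicate 3 is the lowest library for smooth muscle, adipocyte, brown adipocyte, cardiac, airway and platelet genes.

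Of the 1469 genes, limma-trend called 2 past a Benjamini-Hochberg adjusted p of 0.05 (0.136%). Both were lower in HSAPN, and both encode the inducible chaperone HSP70. At an unadjusted p under 0.05 stood 118 genes, 63 lower (4.29%) and 55 higher (3.74%). The smallest adjusted p of a higher gene was 0.125. The libraries of the groups did not overlap in 257 genes (17.5%), lower in HSAPN for 109 (7.42%) and higher for 148 (10.1%). Over all tested genes the log2 difference, HSAPN minus HAPN on the log2(FPKM + 1) scale as all differences below, had a median of 0.03 and quartiles of -0.14 and 0.22. The median standard error was 0.273.

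The HSP70 genes Hspa1b and Hspa1a lie side by side on the minus strand of chromosome 17 (GRCm38; Hspa1b at chr17:34956436-34959238, Hspa1a at chr17:34969190-34972156). Their coding sequences are 99.4% identical, with 8 mismatches, so how reads were split between them is uncertain. The 250 bases before each start site are shown, as RefSeq gives them for GRCm38.p6, because these are the promoters of the 2 genes past the threshold; they differ from each other at 3 bases. Capitals mark a match to a heat shock element, searched as GAANNTTC or TTCNNGAA, each of which reads the same on both strands. The match begins 104 bases before the start site in both.
Hspa1b, chr17:34959239-34959488, minus strand: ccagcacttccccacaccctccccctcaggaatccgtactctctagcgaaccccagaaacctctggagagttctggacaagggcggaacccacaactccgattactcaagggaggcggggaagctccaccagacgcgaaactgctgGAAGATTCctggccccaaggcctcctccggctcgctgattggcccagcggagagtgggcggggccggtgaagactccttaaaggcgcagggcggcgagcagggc
Hspa1a, chr17:34972157-34972406, minus strand: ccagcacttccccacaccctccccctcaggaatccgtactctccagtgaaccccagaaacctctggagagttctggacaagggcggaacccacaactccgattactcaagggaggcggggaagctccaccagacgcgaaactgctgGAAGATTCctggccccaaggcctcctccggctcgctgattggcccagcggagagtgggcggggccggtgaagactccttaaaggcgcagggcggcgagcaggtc
Among the 10 tested heat shock genes, 6 have a match in such a window (Dnaja1, Dnaja4, Hspa1a, Hspa1b, Hspb1 and Hsph1), beside 13.7% of the 968 tested genes with a RefSeq window and 14.6% of all 27025 genes in the RefSeq table. A match describes the letters of the window and is not evidence that a factor binds there.

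Hspa1b was lower in HSAPN than in HAPN. It stood at 91.0, 64.2 and 20.3 FPKM in the HAPN libraries and at 2.57, 2.03 and 2.28 FPKM in the HSAPN libraries, which in reads was 4119, 3195 and 889 against 127, 100 and 106. Every HAPN library was far above every HSAPN library, and HAPN replicate 3 was the lowest of its group. The means were 58.5 ± 35.7 and 2.29 ± 0.266 FPKM (SD, n = 3 each), 25.5-fold lower in HSAPN (log2 difference -3.94, SE 0.457; limma adjusted p = 0.0132).

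Hspa1a was lower as well, at 25.6, 18.7 and 5.82 FPKM in HAPN and at 1.05, 0.845 and 0.772 FPKM in HSAPN. The libraries came in the same order within HAPN as for Hspa1b, and the groups were again wide apart. The mean of Hspa1a was 18.8-fold lower in HSAPN, 16.7 ± 10.03 FPKM in HAPN against 0.889 ± 0.144 FPKM (log2 difference -3.02, SE 0.422, limma adjusted p = 0.0308). Of the exonic length of Hspa1a, 19.0% lies over the gene model Gm20481 on the opposite strand, and the sources do not say whether the counting used strand. The ratio of Hspa1b to Hspa1a was 3.56, 3.44 and 3.49 in HAPN and 2.44, 2.41 and 2.95 in HSAPN. In bulk aorta, fewer cells expressing a gene and less RNA per cell cannot be told apart.

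The high levels were those of HAPN. Hspa1b was 5.22, 8.06 and 8.29 FPKM in WT and 3.36 and 2.49 FPKM in the 2 distinct HFD libraries, so HSAPN lay at or below the levels of the groups outside the comparison and HAPN above all of them. Hspa1a had the same order, with 2.52, 3.22 and 2.44 FPKM in WT and 1.72 and 1.09 FPKM in HFD.

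The 2 calls did not hold in every fit with fewer libraries. The call on Hspa1b was lost when HAPN replicate 2 was left out (limma adjusted p = 0.104) or HSAPN replicate 1, 2 or 3 (0.0884, 0.105 and 0.0963), and that on Hspa1a without HAPN replicate 1 or 2 (0.0921 and 0.213) or HSAPN replicate 1, 2 or 3 (0.164, 0.132 and 0.205), while the log2 differences stayed between -4.56 and -3.50 for Hspa1b and between -3.60 and -2.62 for Hspa1a. With the 6 libraries fitted alone neither passed (limma adjusted p = 0.103 and 0.117). Without HAPN replicate 3, the lowest of the 6 libraries in cardiac and airway markers (HSAPN replicates 1 and 2 were low as well), the differences were -4.56 and -3.60 (limma adjusted p = 6.9e-05 and 7.39e-05) and Dnajb1 passed too (0.0146). With the cardiac marker level as a covariate, an alternative chosen after seeing the data, they were -3.88 and -2.97 (limma adjusted p = 0.00311 and 0.0125).

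The cochaperones of the HSP40 family, which hand unfolded proteins to HSP70, stood lower in HSAPN without passing the threshold. Dnajb1 stood at 69.8, 45.3 and 22.4 FPKM in HAPN and at 10.7, 10.5 and 11.9 FPKM in HSAPN (ratio of means 4.16; log2 difference -1.82, SE 0.366; limma adjusted p = 0.122). Dnaja1 was 76.6, 75.04 and 46.5 against 24.2, 22.3 and 22.9 FPKM (-1.44, SE 0.287; limma adjusted p = 0.122). Neither overlapped between the groups, and the HSAPN libraries of both lay within the range of WT and HFD or just beside it (WT 10.9 to 19.0 FPKM for Dnajb1 and 15.0 to 30.2 FPKM for Dnaja1). The third member, Dnaja4, overlapped, at 26.6, 20.6 and 12.1 against 12.2, 9.26 and 18.9 FPKM (-0.51, limma adjusted p = 0.988), and 44.0% of its exonic length lies over Wdr61 on the opposite strand.

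Hsph1, which encodes the HSP110 nucleotide exchange factor that recharges HSP70, stood at 75.6, 52.0 and 29.4 FPKM in HAPN and at 17.8, 10.03 and 25.2 FPKM in HSAPN (-1.50, SE 0.369; limma adjusted p = 0.187). The groups came close, HSAPN replicate 3 lying just under HAPN replicate 3. Of the genes linked to HSP90, Ahsa2, an activator of its ATPase, was 11.3, 10.9 and 6.16 against 4.29, 3.45 and 3.63 FPKM (-1.09; 47.1% of its exonic length lies over Usp34 on the opposite strand), and the cochaperone gene Chordc1 was 18.9, 18.3 and 11.3 against 9.76, 8.36 and 8.23 FPKM (-0.78). Dedd2, also on the heat shock list, encodes a death effector domain protein rather than a chaperone. It was 13.3, 9.17 and 7.66 against 5.93, 4.02 and 4.53 FPKM (-0.90). None of these 3 overlapped, and their limma adjusted p-values were 0.194, 0.462 and 0.163. The small heat shock protein gene Hspb1 overlapped, at 160, 146 and 91.3 against 111, 89.9 and 135 FPKM (-0.22, limma adjusted p = 0.998).

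As a list, 10 of 47 heat shock genes were in the table and all 10 were tested. The rule that chose the rows of the table is not given, so these 10 may not stand for the 47. The same limit holds for the lists below, and the shares and adjusted p-values rest on the rows of the table only. All 10 were lower in HSAPN, by a median log2 difference of -1.26, beside 45.3% lower and a median of 0.03 over all tested genes. The groups did not overlap in 8 of the 10, beside 7.42% of all tested genes, 8 had an unadjusted p under 0.05, beside 4.29%, and 2 passed the threshold. The list was chosen with earlier results of these libraries known and gives no independent evidence of its direction. HAPN replicate 3 was the lowest HAPN library in all 10, beside 35.2% of all tested genes. It was also the lowest of the 6 libraries in the smooth muscle, adipocyte, brown adipocyte, cardiac, airway and platelet markers. The part of this in the result was not tested beyond the values above. Hspa8 and Bag3 were not analysed here.

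**Figure D2:**
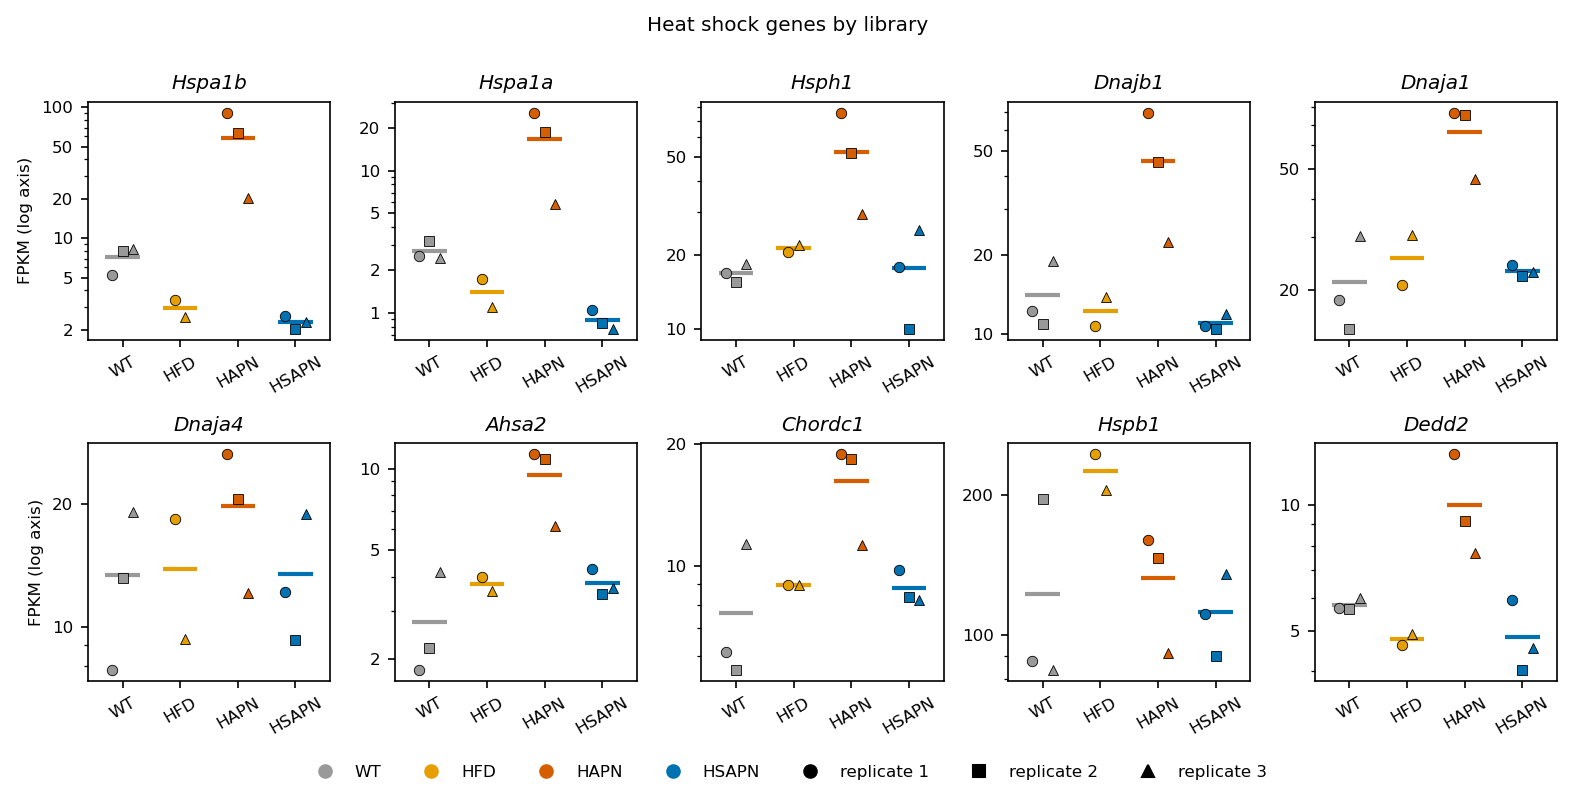
FPKM (log axes, a scale for each gene) of the 10 tested heat shock genes in the 11 distinct libraries by group; points are libraries, symbols give the replicate number and bars are group means. HAPN replicates 1 and 2 stand above every other library for all of these genes but Hspb1, and the HSAPN libraries lie among or near WT and HFD.

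Genes of the circadian clock, in which activators and repressors turn each other on and off over the day, had small p-values in both directions, none past the threshold. Nfil3, a repressor of D-box promoters, stood at 7.79, 7.81 and 8.62 FPKM in HAPN and at 3.44, 2.76 and 3.18 FPKM in HSAPN (8.07 ± 0.474 and 3.13 ± 0.344 FPKM, SD, n = 3 each; log2 difference -1.14, SE 0.215; limma adjusted p = 0.122). The libraries of each group lay close together, well apart from the other group. Nfil3 passed with median-ratio scaling (limma adjusted p = 0.0239; 0.00267 to 0.526 over all alternatives).

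Dbp, an activator that binds the same D-box sites, stood at 3.79, 2.36 and 2.39 FPKM in HAPN and at 12.5, 7.92 and 14.5 FPKM in HSAPN (ratio of means 4.09; log2 difference 1.70, SE 0.423; limma adjusted p = 0.187). Every HSAPN library was above every HAPN library. WT spanned 9.30 to 36.7 FPKM and HFD 3.50 to 4.33 FPKM, so HAPN lay at or below the HFD level and HSAPN near the lower end of WT. Of its exonic length, 18.01% lies over Sphk2 on the opposite strand. Nr1d2, a nuclear receptor that represses clock genes, was 16.2, 11.7 and 10.3 FPKM in HAPN and 28.9, 21.4 and 26.8 FPKM in HSAPN (ratio 2.02; 0.97, SE 0.211; limma adjusted p = 0.129), beside 21.1 to 24.7 FPKM in WT and 11.5 to 16.1 FPKM in HFD.

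Hlf, the other D-box activator tested, overlapped (1.33, 2.75 and 2.37 against 3.45, 2.56 and 2.09 FPKM; 0.25, limma adjusted p = 0.998). So 3 of the 4 tested clock genes, of 26 on the list and 5 in the table, had groups that did not overlap, beside 17.5% of all tested genes, 2 higher (10.1%) and 1 lower (7.42%). Arntl, Per1, Per2 and Nr1d1 were not analysed here, and the time of collection, which these genes follow, is not given for either group; its part in the result was not tested.

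**Figure D3:**
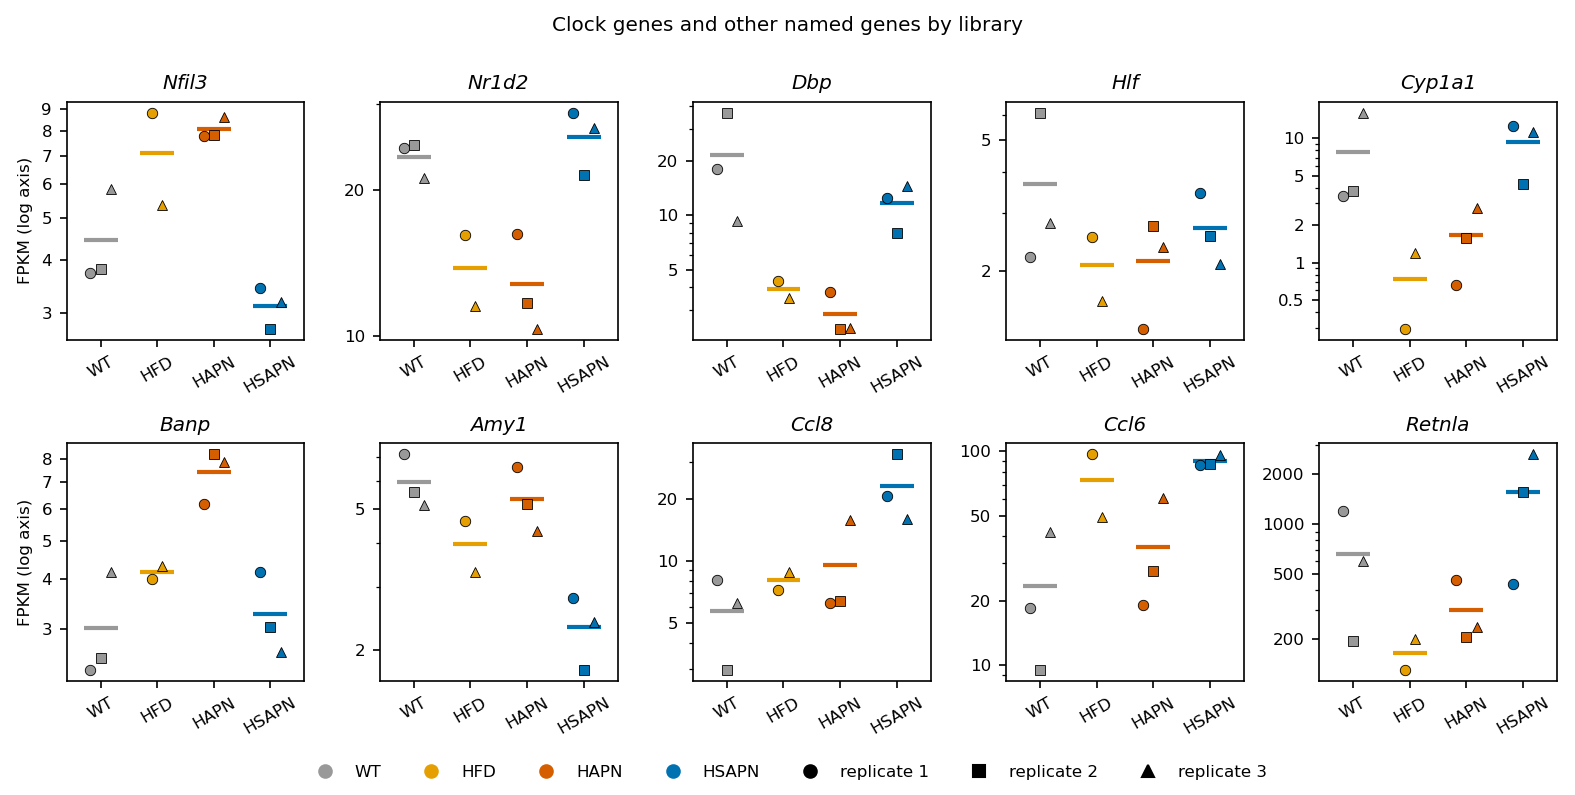
FPKM (log axes, a scale for each gene) of the 4 tested clock genes and 6 other named genes in the 11 distinct libraries by group; points are libraries, symbols give the replicate number and bars are group means. In Nfil3, Nr1d2, Dbp, Cyp1a1, Banp, Amy1, Ccl8 and Ccl6 the HAPN and HSAPN libraries do not overlap, while Hlf and Retnla overlap.

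The other genes that the naming rule took by p-value, among genes without overlap only, are given as values, since none passed the threshold. Lypla1, a thioesterase that removes palmitate from proteins, stood at 2.76, 2.80 and 2.81 FPKM in HAPN and at 4.78, 5.11 and 5.62 FPKM in HSAPN (0.70, SE 0.146; limma adjusted p = 0.125). Emp1, a membrane protein gene, was 36.1, 32.2 and 35.6 against 49.2, 48.1 and 49.3 FPKM (0.48, SE 0.131; limma adjusted p = 0.232). In both genes the libraries of a group were tight and the difference between groups modest, 1.85-fold and 1.41-fold in the means.

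Cyp1a1, the cytochrome P450 that the aryl hydrocarbon receptor induces, had the largest difference among the named higher genes whose groups did not overlap, 0.664, 1.59 and 2.75 FPKM in HAPN against 12.6, 4.32 and 11.2 FPKM in HSAPN (ratio 5.62; 1.92, SE 0.577; limma adjusted p = 0.336). These were 30, 79 and 119 reads against 621, 211 and 516. Its levels varied as widely elsewhere, from 3.46 to 16.1 FPKM in WT and from 0.293 to 1.19 FPKM in HFD. Tmem14a was 4.84, 2.95 and 3.11 against 7.08, 6.24 and 6.29 FPKM (0.72; limma adjusted p = 0.191). The zinc finger genes Zfp386, Zfp113 and Zfp37 differed by 0.48, 0.48 and 0.52, Tmem47 by 0.57 (11.5% of its exonic length lies over Gm26775 on the opposite strand) and Smim26 by 0.43, with limma adjusted p-values of 0.336 to 0.462.

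On the lower side, Banp, which encodes a nuclear protein that binds promoters, was 6.16, 8.26 and 7.89 FPKM in HAPN and 4.16, 3.03 and 2.62 FPKM in HSAPN (-0.99, SE 0.222; limma adjusted p = 0.144). The aldo-keto reductase gene Akr1b8 was 46.7, 34.1 and 34.7 against 13.6, 16.7 and 23.2 FPKM (-1.08; limma adjusted p = 0.187). Amy1, one of a family of near-identical amylase genes, was 6.55, 5.15 and 4.33 against 2.79, 1.75 and 2.39 FPKM (-0.93; limma adjusted p = 0.156). Its value is uncertain for that reason, and 32.7% of its exonic length is shared with Rnpc3 on the same strand. These 3 were taken from the genes whose groups did not overlap, 7.42% of all tested genes on the lower side. Their lack of overlap was thus set by the naming rule.

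**Figure D4:**
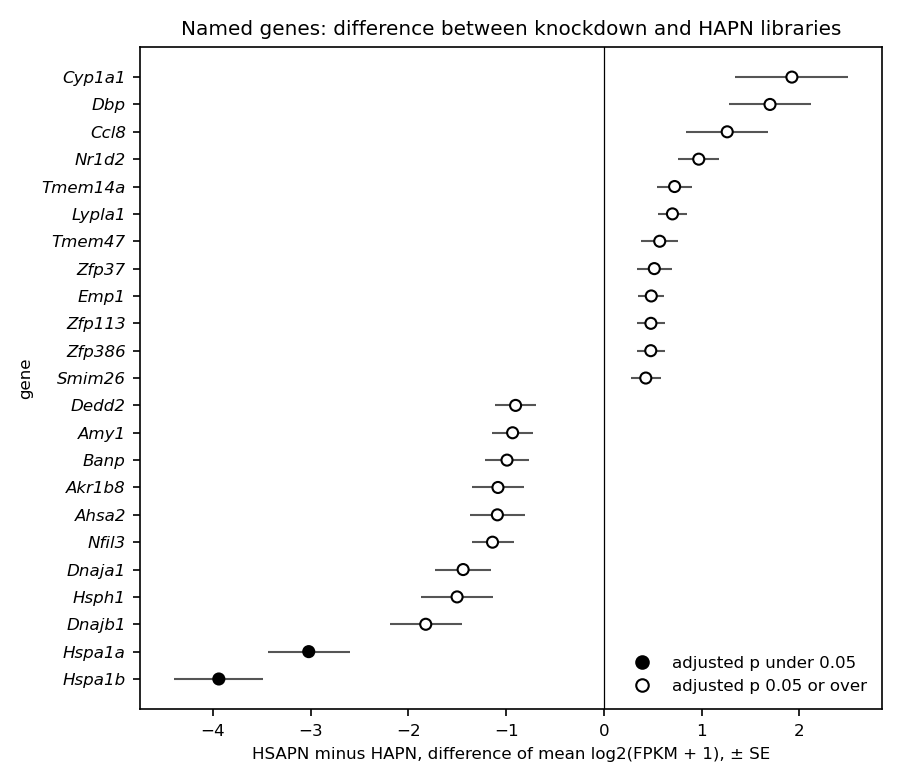
Log2 difference, HSAPN minus HAPN on the log2(FPKM + 1) scale, with its standard error, for 23 genes named by p-value among those without overlap. Filled points passed an adjusted p of 0.05. Hspa1b and Hspa1a, the filled points at -3.94 and -3.02, lie apart from all others, which run from -1.82 to 1.92.

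Adiponectin signalling, the pathway in which APPL1 is known to act, could be read in few genes: 6 of 26 on the list were in the table and 4 were tested, 2 higher and 2 lower (median -0.07), with no gene past the threshold or without overlap. None of the 4 was lower without HAPN replicate 2, and all 4 were with array weights. Cdh13, whose product T-cadherin binds adiponectin, was 1.89, 2.94 and 1.91 FPKM in HAPN and 1.85, 2.56 and 2.87 FPKM in HSAPN (0.08, SE 0.390). The acetyl-CoA carboxylase genes Acaca and Acacb, whose products AMPK phosphorylates, differed by 0.04 and -0.17. Adipoq itself, a fat cell gene, was 3.39, 15.8 and 0.0923 against 0.533, 2.27 and 4.06 FPKM (-0.56, SE 1.63; 0.42 without HAPN replicate 2). The 9 fat cell markers, Adipoq included, summed to 71.2, 248 and 22.5 against 33.6, 48.8 and 94.5 FPKM, and Cfd was the largest part of several of these sums (42.5, 181 and 0.415 against 6.94, 22.9 and 61.4 FPKM). Lipe and Pparg varied less, from 9.54 to 15.6 and from 2.66 to 4.15 FPKM over the 6 libraries; these 3 markers were named after their values were seen, and their part in the result was not tested. The directions of Cdh13 and Acaca were not stable, being -0.11 and -0.067 with array weights. All 4 tested genes had limma adjusted p-values of 0.998.

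For insulin and Akt signalling, 7 of 50 listed genes were tested, 4 higher and 3 lower (median 0.07; 1 lower without HSAPN replicate 2). Igf1, the growth factor, was 2.08, 1.34 and 1.75 against 2.30, 3.49 and 2.86 FPKM, without overlap (0.51; limma adjusted p = 0.830). The insulin receptor substrate gene Irs2 differed by 0.08 and the glucose transporter gene Slc2a4 by -0.32 (0.0068 without HAPN replicate 2), both with overlap.

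Immediate early genes, which cells transcribe within minutes of a stimulus, were tested in 12 of 38, 9 lower and 3 higher (median -0.24), beside 45.3% lower over all tested genes. The groups did not overlap in 4 of the 12, beside 17.5%. Nr4a3, an orphan nuclear receptor gene, was 4.28, 3.27 and 2.204 against 1.11, 1.28 and 1.05 FPKM (-0.96; limma adjusted p = 0.425), and the stress factor gene Atf3 17.6, 5.94 and 7.16 against 3.50, 4.18 and 2.77 FPKM (-1.20; 0.497). Gadd45g was 29.3, 31.2 and 38.1 against 25.7, 21.4 and 22.03 FPKM (-0.49), and the matricellular gene Cyr61 was the one higher without overlap (31.4, 23.2 and 33.3 against 57.4, 52.2 and 34.7 FPKM; 0.68, limma adjusted p = 0.615). Fos (0.40), Egr1 (0.06) and Nr4a1 (-0.51) overlapped, and Egr1 turned to -0.10 without HAPN replicate 2 and to -0.02 without HSAPN replicate 2. Of 8 glucocorticoid targets, 4 were higher and 4 lower (median -0.14), with the metallothionein gene Mt1 at 101, 83.9 and 76.5 against 59.7, 32.0 and 63.7 FPKM (-0.79; limma adjusted p = 0.529) and Pdk4, Cdkn1a and Lcn2 overlapping (-1.18, -0.59 and 0.995).

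Chemokine and cytokine genes lay on the higher side in 12 of 15 tested (of 84 listed; median 0.31, beside 54.7% higher and 0.03 over all tested genes), and 2 did not overlap, beside 10.1% of all tested genes. The 3 lower genes became 6 without HAPN replicate 1 (median 0.086) and 0 without HAPN replicate 3 (median 0.84). Ccl8, a monocyte-attracting chemokine gene, was 6.27, 6.37 and 15.8 FPKM in HAPN and 20.6, 33.0 and 15.9 FPKM in HSAPN (1.26, SE 0.420; limma adjusted p = 0.418). Ccl6 was 19.2, 27.5 and 60.2 against 86.0, 87.5 and 96.1 FPKM (1.47, SE 0.540; limma adjusted p = 0.497). For both, HAPN replicate 3 was the highest of its group and closest to HSAPN. Ccl9 (0.997) and Ccl11 (0.31) overlapped.

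Of 7 tested macrophage genes 4 were higher and 3 lower. Retnla, a gene of alternatively activated macrophages, was 460, 206 and 238 against 431, 1570 and 2665 FPKM, the largest difference that overlapped among the named genes (2.103, SE 0.769; limma adjusted p = 0.497). The eosinophil granule gene Prg2, on the macrophage list, was 2.13, 4.42 and 2.66 against 0.676, 0.476 and 1.94 FPKM (-1.03; limma adjusted p = 0.382), from 29 to 66 reads in HAPN and 7 to 27 in HSAPN. Camp, a neutrophil granule gene, was 0.407, 2.15 and 0.673 against 8.59, 2.03 and 5.64 FPKM (1.57), and the groups overlapped. The 10 interferon response genes split 5 and 5, a split that single libraries set, with 0 lower without HAPN replicate 3 (median 0.85), 1 without HSAPN replicate 3 and 6 without HAPN replicate 1 (median -0.51) (Iigp1 4.92, 10.6 and 43.4 against 21.6, 39.6 and 12.7 FPKM; Ifit2 0.66). The cytotoxic gene Gzmb stood at 30.5 FPKM in HAPN replicate 3 and at 1.16 to 4.60 FPKM in the 5 other libraries (-0.51, and 0.59 without that library).

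Contractile genes of smooth muscle, the main cell of the aortic media, were tested in 15 of 25, 6 higher and 9 lower, with differences from -0.33 to 0.33 (median -0.03). The smooth muscle myosin gene Myh11 was 58.7, 49.5 and 28.3 against 26.2, 36.7 and 42.6 FPKM (-0.33, SE 0.648) and Lmod1 differed by -0.20, both overlapping, while Cald1 stood without overlap at 9.55, 11.0 and 8.87 against 11.1, 14.2 and 12.5 FPKM (0.33; limma adjusted p = 0.755). The number of lower genes was 3 without HAPN replicate 1 or HSAPN replicate 1, 12 without HAPN replicate 3, 11 without HSAPN replicate 3 and 14 with array weights. Fibroblast genes were higher in 8 of 11 (median 0.14), among them the microfibril gene Mfap5 (6.48, 5.57 and 8.14 against 9.15, 9.97 and 10.3 FPKM; 0.50, limma adjusted p = 0.549), and matrix and protease genes in 9 of 13 (median 0.12; the 4 lower were 2 without HSAPN replicate 1; Fbln5, an elastic fibre gene, 0.65). Among 11 vasoactive genes, 7 were higher, beside 54.7% of all tested genes, and 3 of them did not overlap, beside 10.1%; the angiotensin receptor gene Agtr1a was 2.83, 3.04 and 2.63 against 5.43, 3.33 and 4.22 FPKM (0.46; limma adjusted p = 0.591) and the endothelin gene Edn1 overlapped (9.39, 30.7 and 27.0 against 12.8, 15.3 and 11.5 FPKM; -0.57).

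Metabolic lists lay near the median of all genes. Nuclear genes of the respiratory chain were tested in 57 of 82, 25 higher and 32 lower, all between -0.41 and 0.30 (median -0.01; Ndufb4 0.22, Cox4i1 -0.23), and the lower genes numbered 16 without HSAPN replicate 1, 21 without HAPN replicate 1 or HSAPN replicate 2 and 51 without HSAPN replicate 3. Mitochondrially encoded genes were higher in 10 of 14 (median 0.08), with 0, 9 and 7 lower without HAPN replicate 1, 2 and 3. Glycolytic genes were higher in 8 of 18 (median -0.03), and the 10 lower were 6 without HAPN replicate 2 or HSAPN replicate 2 and 5 without HSAPN replicate 1. Genes of fatty acid oxidation were lower in 19 of 25, beside 45.3% of all tested genes, by a median of -0.07 (Acadm -0.23). HAPN replicate 3 was the lowest HAPN library in 20 of the 25, beside 35.2% of all tested genes. Lipid handling genes were lower in 13 of 22 (median -0.10), and in 7 of 22 without HAPN replicate 2. Among them the fatty acid transporter gene Slc27a1 differed by -0.52, without overlap (limma adjusted p = 0.857). Fat cell genes were lower in 15 of 24 (median -0.15), and in 6 of 24 without HAPN replicate 2. Among fat cell genes Nnat stood higher without overlap (6.03, 7.09 and 6.03 against 9.04, 11.6 and 12.0 FPKM; 0.68, limma adjusted p = 0.506) and the brown fat gene Cidea overlapped (-0.86). Of 38 solute carrier genes, 21 were higher and 17 lower. The myo-inositol transporter gene Slc5a3 was 4.62, 4.89 and 2.53 against 1.63, 1.77 and 1.67 FPKM, without overlap (-0.86, limma adjusted p = 0.362). Slc23a3 was 1.56, 1.14 and 1.21 against 0.575, 0.526 and 0.473 FPKM (-0.59, limma adjusted p = 0.255). It reached 1 FPKM in the HAPN libraries only, so its entry into the test already fixed its lack of overlap.

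Cardiac genes varied widely within the groups, and red cell genes did within HAPN. All 10 tested erythrocyte genes had a higher mean in HSAPN (median 0.62; 0.26 without HAPN replicate 1 and 0.22 with array weights), yet none was without overlap. The red cell markers summed to 1298, 3887 and 2983 against 4866, 3155 and 4187 FPKM. Platelet genes were higher in 13 of 20 (median 0.08), with 7 lower, a number that was 1 without HAPN replicate 1, 2 without HSAPN replicate 3, 11 without HSAPN replicate 2 and 15 without HAPN replicate 3. The 4 tested cardiac genes were lower by a median of -0.37 with wide overlap (Tnnt2 25.2, 26.7 and 1.58 against 5.62, 3.45 and 28.7 FPKM); without HAPN replicate 1 or 2, 1 and 0 of them were lower, and without HSAPN replicate 1 or 2, 2 and 1. Of 6 nerve genes 2 were higher and 4 lower (2 without HAPN replicate 2). The 2 higher genes did not overlap between the groups, beside 10.1% of all tested genes. The tubulin gene Tubb4a was 3.62, 4.84 and 4.66 against 7.60, 6.91 and 5.46 FPKM (0.51, limma adjusted p = 0.599).

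**Figure D5:**
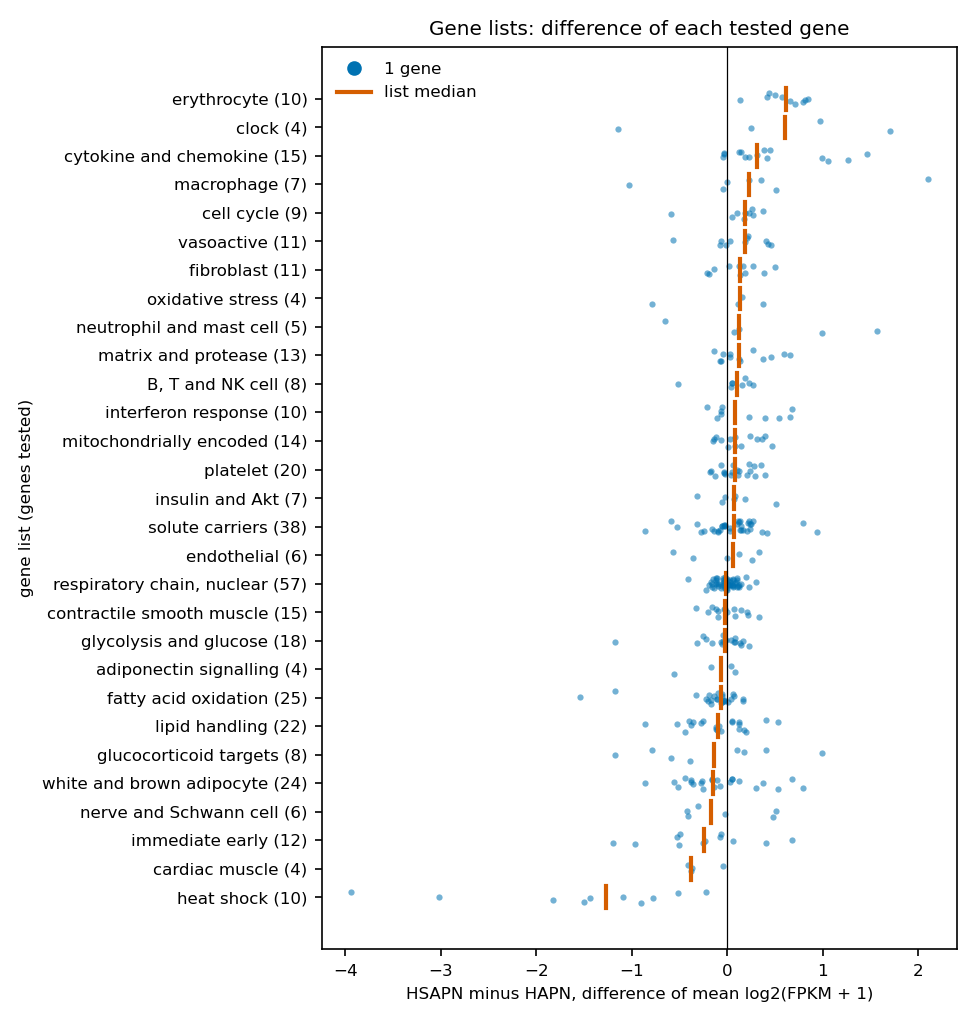
Log2 difference, HSAPN minus HAPN on the log2(FPKM + 1) scale, of each tested gene (points) and the median (bars) of the 29 lists with at least 4 tested genes; the number tested is in parentheses and the vertical position of points within a list is arbitrary. The heat shock median of -1.26 is the farthest from 0, and the other medians run from -0.37 to 0.62.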

How the data were processed

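mRNA of mouse aorta was sequenced in 12 samples of 4 groups of 3; RNA was extracted with TRIzol and libraries made with a directional NEB kit, per the labels' protocols. The deposited files give 1 FPKM value per gene symbol for 3534 rows; the unit is not named in the headers and was read from the values, since 96.1 to 97.2% of low values (up to 20 reads, tolerance 0.1) returned whole reads over GENCODE M21 exonic lengths, a test that does not tell FPKM from TPM. Tools named in the submitters' processing notes, without their role, are DESeq 1.8.3 and featureCounts 1.5.0-p3; the build is GRCm38. Not given in the sources used here are the aligner, the annotation release, the strand setting and the rule that chose the rows. One read on 1 kb was worth 0.0563 to 0.0641 FPKM in the 6 libraries.

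HFD replicates 1 and 2 had files with the same values and entered as 1, leaving 11 distinct libraries. Dlg2, listed 2 times, was left out, and 4 symbols turned into dates were not named. The design allowed for counts or FPKM, and the test for FPKM was used: limma-trend (limma 3.58.1, R 4.3.3) on log2(FPKM + 1), with 4 group means, 7 residual degrees of freedom and Benjamini-Hochberg adjustment over 1469 genes, tested on simulated data. Tables and figures were made with Python 3.11.15, pandas 2.3.3, NumPy 2.4.6 and matplotlib 3.10.9.

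Named were the genes past the threshold; among genes without overlap whose log2(FPKM + 1) averaged 1 or more, the 12 of smallest p in each direction, leaving out unnamed models, pseudogenes and receptor segments; up to 4 genes of smallest p in each of the 29 lists (of 36) with at least 4 tested genes; and all heat shock, clock, immediate early and adiponectin genes. Not every gene so named is described, and some are not reported here. Members and lists were chosen with earlier results of these data known. Alternatives were the filter, pseudocount, scaling, libraries fitted alone, replicate block, array weights and each replicate left out; limma-voom on recovered reads and the cardiac covariate were chosen after seeing the data.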

Additional observations from a re-analysis of the deposited data

How the results depend on the processing

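The 2 genes past the threshold were 1 without a filter on low values, 2 with a filter of 5 FPKM, 2 with a pseudocount of 0.1, 3 with median-ratio scaling, which moved the median of all genes by less than 0.1, 2 with the cardiac covariate and 1 with limma-voom on recovered reads. With the 6 libraries alone 0 passed in limma (165 at an unadjusted p under 0.05). Under array weights (4.68 for HAPN replicate 2) 72 passed, 30 higher and 42 lower. Leaving out single libraries gave 0 to 3 (0 without HAPN replicate 2 or any HSAPN replicate, 1 without HAPN replicate 1, 3 without HAPN replicate 3); where the count was 0, 77 to 107 genes had an unadjusted p under 0.05. Every fit without a library had fewer samples, the fit that gave 3 included, and the cause of these counts was not tested. With a replicate block 0 passed (133 at an unadjusted p under 0.05; limma adjusted p = 0.330 for both Hspa1b and Hspa1a), but the numbers share nothing known: deviations of same-numbered libraries correlated at 0.00, -0.21 and -0.55 across genes, and no library correlated best with its own number. Hspa1a also lost its call without a filter (limma adjusted p = 0.0686) and with limma-voom (0.0652).

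Of 71 genes described, 48 had a value under all 15 alternatives and the others under 14, mostly for want of 5 FPKM, and 63 kept their direction in those run. The other 8 were small or scattered differences: with array weights Cdh13 was -0.11 and Acaca -0.067, and with single libraries left out the differences ran from -0.10 to 0.22 for Egr1, -1.55 to 0.42 for Adipoq, -0.013 to 0.23 for Cdh13, -0.086 to 0.14 for Acaca, -0.37 to 0.014 for Acacb, -0.77 to 0.0068 for Slc2a4, -1.49 to 0.22 for Tnnt2 and -1.34 to 0.59 for Gzmb. Depth limits the genes at a few reads, such as Camp with 5, 29 and 8 reads in HAPN.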
